A study of Mus musculus with 20 samples.

Results

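The RNAs described here are 6 rows of a total RNA sequencing experiment that stand for ribosomal and structural RNA rather than for mRNA. They are Rn18s-rs5 (a row over 18S ribosomal RNA sequence), Gm25911 (a short row annotated as a miRNA), Rn7s6 (a 7SL-related gene), Rn7sk (7SK RNA), Rmrp (the RNA of RNase MRP) and Rpph1 (the RNA of RNase P). They were chosen by name, with their levels in these libraries known, out of 32081 rows with an FPKM value, of which 20442 also have a variance-stabilized value. All 6 have both values and all 6 passed the minimum mean of 0.5 FPKM used for testing. FPKM counts fragments per kilobase of gene, scaled to the assigned reads, and the variance-stabilized value is a log2-scale count in which the authors had evened out depth and spread. Because the levels were known, they are given as a description and support no claim about the RNAs.

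The study asked what HDL and 2 miRNA inhibitors do to aortic endothelium in mice with both raised cholesterol and kidney disease. All 20 mice were female, carried the Apoe-/- genotype on strain B6.129P2-Apoetm1Unc/J, ate regular chow, had 5/6 nephrectomy at 9 weeks of age, were injected once behind the eye 7 weeks later and were killed 1 week after that. The 4 saline mice received no HDL, and the 4 HDL mice received 4 mg of HDL. The 4 LNA92a mice and the 4 LNA489 mice received the same HDL with 20 mg/kg of 1 locked nucleic acid inhibitor, and the 4 dual mice received the HDL with 20 mg/kg of each, 40 mg/kg in total. LNA92a and LNA489 are named for miR-92a and miR-489, and below each name stands for a group that also received HDL. No group with intact kidneys, with intact Apoe or with an inhibitor of neither miRNA was analysed here, and the inhibitors act in the whole animal and not in the endothelium alone. Each library carries the name of its group with the number of its mouse (LNA92a 17).

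Ribosomal RNA is the bulk of the RNA in a cell. RNA polymerase I makes 18S as part of one long precursor, and RNase MRP is among the enzymes that cut that precursor. RNA polymerase III makes 7SL, 7SK and the RNAs of RNase MRP and RNase P. 7SL is the scaffold of the signal recognition particle, which brings ribosomes that make secreted proteins to the endoplasmic reticulum. 7SK holds the elongation kinase P-TEFb inactive, and RNase P trims the 5′ ends of tRNA precursors. None of these RNAs is known for a poly(A) tail. The kit used for the libraries is named, but whether it removed ribosomal RNA is not given in the sources used here. Shares below are therefore shares of the reads, and cannot be read as the RNA content of the tissue.

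The sequences show which molecule each row can count. All positions are from GENCODE M21 on GRCm38, 1-based, and all sequences are GENCODE M21 transcripts, printed 5′ to 3′ as DNA. Rn18s-rs5 (ENSMUSG00000106106.2) lies on chr17:39846353-39848827 on the minus strand, is typed as rRNA in that release under the name CT010467.1, and has 2466 bases of exon. Its first 60 bases and the same bases on the opposite strand are shown because they tell which strand the annotation reads, with the same 20 bases in capitals in both.
Rn18s-rs5, first 60 bases: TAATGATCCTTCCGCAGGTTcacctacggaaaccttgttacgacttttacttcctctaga
Rn18s-rs5, opposite strand: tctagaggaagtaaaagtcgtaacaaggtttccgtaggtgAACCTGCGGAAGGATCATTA
The capitals on the opposite strand are the well-known 3′ end of 18S rRNA, so the annotated transcript runs antisense to the ribosomal RNA. Gm42418, a lincRNA on the plus strand of the same place, shares a run of 1244 bases with that opposite strand and a longest run of 10 bases with the annotated strand. Gm42418 and AY036118, which also overlaps, have no row used here. The strand of counting is not given in the sources used here, so reads of the 2 strands cannot be told apart. Below, 18S stands for the reads of the Rn18s-rs5 row, whichever strand they came from. The last base of Gm26917, a lincRNA of 3329 bases on the plus strand, lies 12 positions below the lowest coordinate of Rn18s-rs5. Since Rn18s-rs5 is on the minus strand, that coordinate is its annotated 3′ end.

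Gm25911 (ENSMUSG00000088246.1) lies on chr1:167340369-167340424 on the minus strand, overlaps no other annotated gene, and is 56 bases long with 71.4% G and C. It is shown beside Gm23935 on chr16:11144125-11144181, a row of the same type inside Zc3h7a on the opposite strand, because the rows are nearly the same sequence. The capitals mark the bases in which they differ.
Gm25911: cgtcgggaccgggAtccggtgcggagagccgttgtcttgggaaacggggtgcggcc
Gm23935: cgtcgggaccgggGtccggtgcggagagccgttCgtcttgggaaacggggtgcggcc
Counting from the 5′ end of Gm23935, the change is G14A and Gm25911 lacks the base at position 34, so 55 of 57 aligned positions are the same. Gm24270 and Gm24245 also match Gm25911 at 55 of 57 positions, Gm24187 at 54 and Gm23388 at 51. How reads that match several places were counted is not given in the sources used here, so the level of Gm25911 is uncertain. The sequence was not compared with 28S rRNA here.

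Rn7s6 (ENSMUSG00000092746.2) lies on chr6:69516339-69516629 on the plus strand, is 291 bases long and overlaps Gm47304, which has no row of its own used here. 7SL genes belong to a family of near-identical copies, so the level of Rn7s6 is also uncertain.

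Rn7sk (ENSMUSG00000065037.1, chr9:78175303-78175633, minus strand, 331 bases) overlaps no other annotated gene. Its first 100 bases, which hold every GATC in it, are shown with those motifs in capitals, since GATC repeats of the 5′ hairpin are where HEXIM proteins bind 7SK.
Rn7sk, first 100 bases: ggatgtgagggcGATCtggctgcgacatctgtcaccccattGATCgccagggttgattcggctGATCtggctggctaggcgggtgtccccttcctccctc
The 3 copies of GATC start at bases 13, 42 and 64.

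Rpph1 (ENSMUSG00000092837.1, chr14:50807449-50807767, minus strand, 319 bases) lies within Ccnb1ip1, a protein-coding gene on the same strand with no row of its own used here. A stretch of 21 bases, in capitals, occurs in it 2 times in a row, from base 182 and from base 203.
Rpph1, bases 162 to 243: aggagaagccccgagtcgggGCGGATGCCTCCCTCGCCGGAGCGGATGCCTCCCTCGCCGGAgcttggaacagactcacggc
Rmrp (ENSMUSG00000088088.1, chr4:43492788-43493058, minus strand, 271 bases) is overlapped by Ccdc107 on the plus strand and by a lincRNA entry of 281 bases that bears the same name. Its level is uncertain for that reason, and the level of Rpph1 for the overlap with Ccnb1ip1.

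The 20 libraries held 11.6 to 21.4 M assigned reads (M, mega) and a read on 17378 to 23365 genes. All 12 endothelial marker genes were above 0 in every library, and the summed level of that list ran from 78.0 to 2228 FPKM. Of the marker lists of 8 other cell types, 3 (fibroblast, macrophage, B and plasma cell) had no gene at 0 in any library, and each of the other 5 had 1 such gene. In such bulk RNA, fewer cells of a type and less RNA per cell cannot be told apart. The labels give no batch and no date, and each library comes from its own mouse.

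By mean share of the assigned reads, Rn18s-rs5 took 8.95% and ranked 1st of all rows. Rn7sk took 0.405% (rank 14), Rpph1 0.282% (rank 23), Gm25911 0.0189% (rank 599), Rmrp 0.0175% (rank 681) and Rn7s6 0.00147% (rank 8413). The rows next below Rn18s-rs5 were mt-Rnr2, Gm26917, mt-Rnr1 and Gm23935 with 4.47%, 2.76%, 2.61% and 2.01%. The 6 RNAs together took between 4.31% of a library (dual 10) and 23.1% (LNA92a 17). Without Rn18s-rs5 the other 5 took 0.385% to 1.11%, so nearly all of that range came from the Rn18s-rs5 row. Per length, over the mean of all libraries, the order was Rn18s-rs5 (36295 FPKM), Rn7sk (12241 FPKM), Rpph1 (8841 FPKM), Gm25911 (3375 FPKM), Rmrp (647 FPKM) and Rn7s6 (50.5 FPKM).

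In percentage points, Rn18s-rs5 had the widest range of read share of the 6 RNAs. As highest over lowest share, its 6.90 was close to 7.20 for Rn7s6 and 7.03 for Gm25911. It took 12.2%, 12.0%, 3.94% and 3.90% of the reads in saline 1, 2, 9 and 24. In HDL 3, 4, 11 and 23 its share was 10.5%, 8.01%, 4.79% and 5.00%. Saline and HDL thus each split into a pair of higher and a pair of lower libraries, and the groups overlapped. In LNA92a 5, 12, 17 and 18 the share was 19.1%, 6.07%, 22.4% and 18.2%. The shares of LNA92a 5, 17 and 18 were higher than in every library of the other groups, and that of LNA92a 12 lay within the range of HDL. In LNA489 7, 13, 14 and 19 the share was 9.56%, 5.31%, 4.16% and 12.0%, and in dual 8, 10, 15 and 21 it was 9.11%, 3.25%, 3.37% and 6.05%. Dual 10 was the lowest of all 20, with an exact 95% binomial interval of 3.24% to 3.26%, against 22.40% to 22.45% in LNA92a 17. Such intervals cover counting error only and are far narrower than the spread between mice.

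The group mean share was 5.44% ± 2.76 (SD, n = 4) in dual, 8.02% ± 4.73 in saline and 7.76% ± 3.66 in LNA489. Leaving out each mouse in turn moved the LNA92a mean between 14.5% and 19.9%. Since FPKM is divided by all assigned reads, a higher 18S share lowers every other FPKM. From the shares alone that shift is -0.32 (log2) between dual 10 and LNA92a 17, and -0.15 between the group means of HDL and LNA92a. The median difference of all genes on log2(FPKM + 0.1) was -0.48 in LNA92a and -0.11 in LNA489 against HDL, and -0.06 and -0.05 on the variance-stabilized scale. With 18S reads taken out of the denominator, the LNA92a median on log2(FPKM + 0.1) was still -0.33. Below, FPKM differences of LNA92a are therefore also given relative to the median of -0.48.

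**Figure D1:**
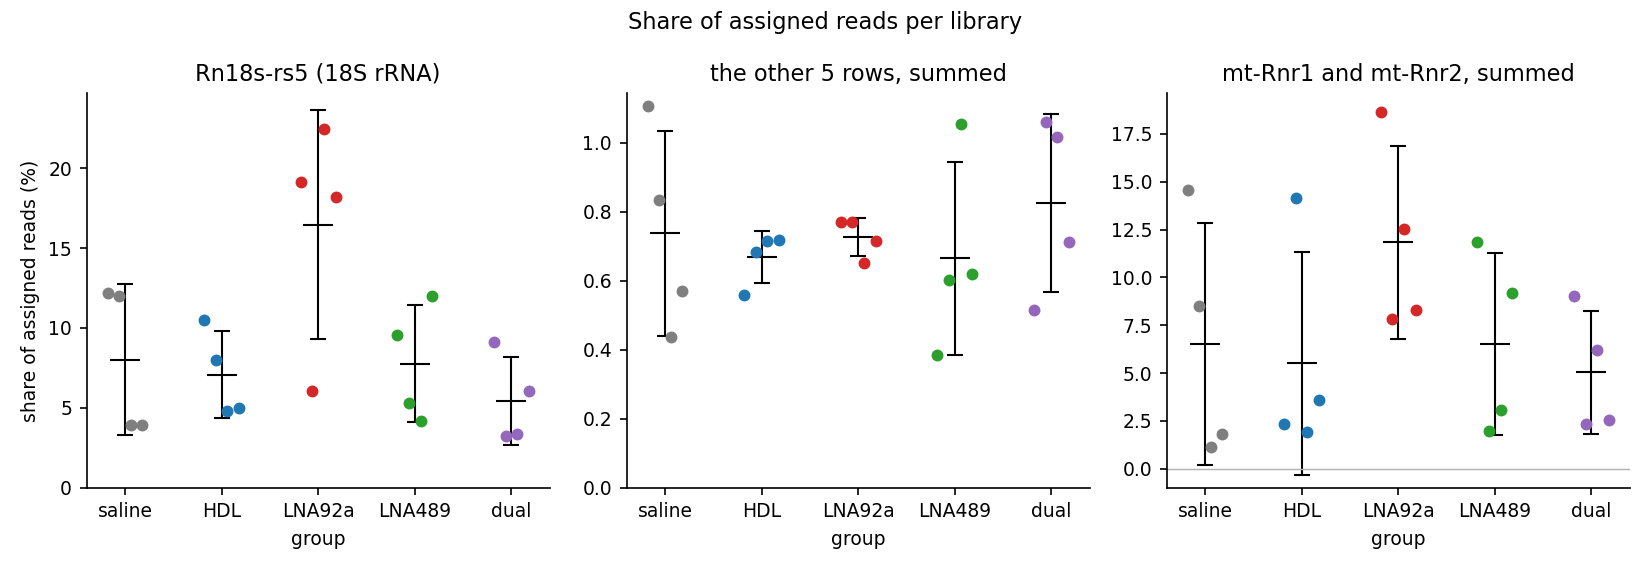
Share of assigned reads (%, y axis) by group (x axis) for Rn18s-rs5, for the other 5 RNAs summed and for the mitochondrial rRNAs mt-Rnr1 and mt-Rnr2 summed; points are libraries, bars the mean ± SD of 4 mice, and in the third panel the SD bar of HDL reaches below 0. LNA92a 5, 17 and 18 lie above all other libraries for Rn18s-rs5, while the sum of the other 5 RNAs stays between 0.385% and 1.11%.

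The mitochondrial rRNAs also varied between libraries. Mt-Rnr1 and mt-Rnr2 together took 11.8% ± 5.03 of the reads in LNA92a (n = 4) and 5.50% ± 5.81 in HDL, with the lowest share in saline 9 and the highest, 18.7%, in LNA92a 5. HDL 4, at 14.2%, lay above 3 of the 4 LNA92a libraries. Gm26917 did not follow Rn18s-rs5, which it adjoins: its FPKM was 5.91% of that of Rn18s-rs5 in LNA92a 5 and 110.0% in HDL 11. The median of that ratio was 7.83% in LNA92a and 42.4% in HDL.

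**Figure D2:**
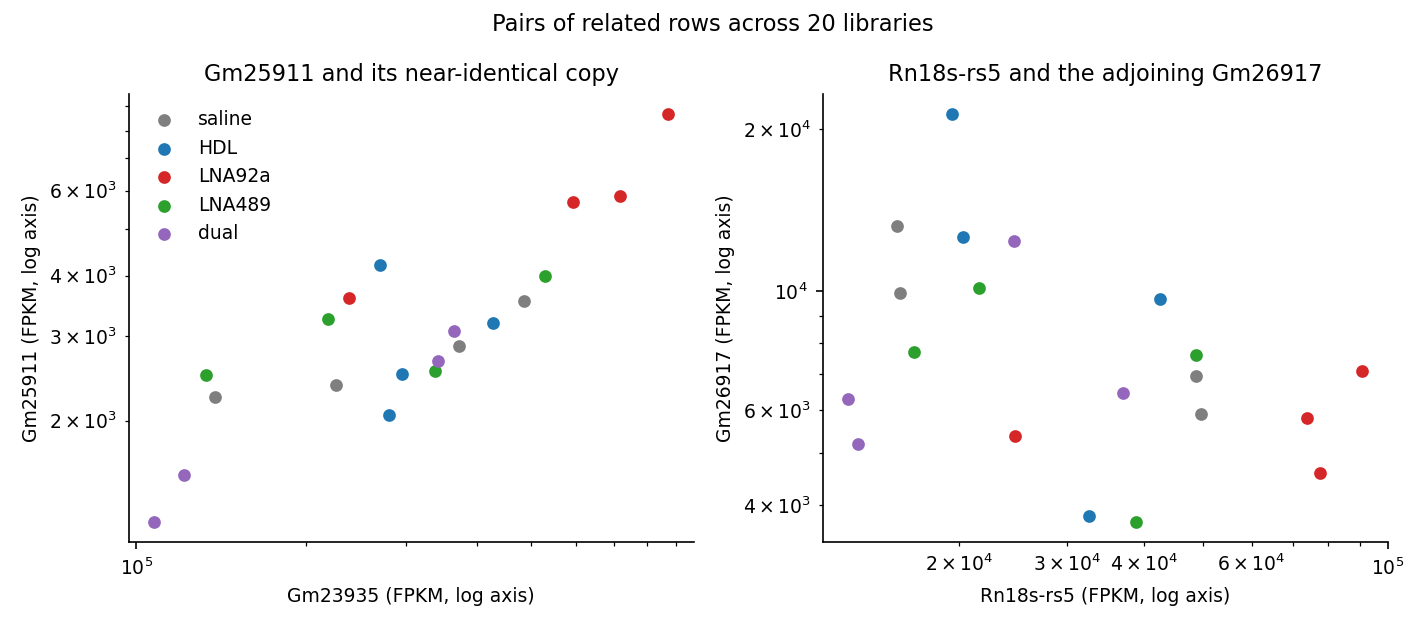
Left: FPKM of Gm25911 (y axis) against FPKM of Gm23935 (x axis); right: FPKM of Gm26917 (y axis) against FPKM of Rn18s-rs5 (x axis); all axes are log axes, each point is 1 of 20 libraries and colours are the groups. Gm25911 stays between 0.728% and 1.87% of Gm23935, while Gm26917 runs from 5.91% to 110.0% of Rn18s-rs5.

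Gm25911 had the order of libraries most like that of Rn18s-rs5. Its FPKM was 2861, 3538, 2235 and 2368 in saline 1, 2, 9 and 24, and 3194, 2497, 4198 and 2058 in HDL 3, 4, 11 and 23. Saline and HDL overlapped. In LNA92a 5, 12, 17 and 18 it was 5679.5, 3590.3, 8663 and 5839. The same 3 LNA92a libraries that were high in 18S were the highest of all 20 in Gm25911, and LNA92a 12 lay below HDL 11. It was 2537, 3256, 2483 and 4001 FPKM in LNA489 7, 13, 14 and 19, and 3072, 1232, 1541 and 2654 in dual 8, 10, 15 and 21. Dual 10 and dual 15, the lowest libraries in 18S, were also the lowest in Gm25911. Its near-identical row Gm23935 ran from 107640 to 873291 FPKM, and Gm25911 stood at 0.728% (saline 2) to 1.87% (LNA489 14) of it, with a median of 0.902%.

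Rn7s6 was the weakest of the 6 RNAs, with 56 reads in LNA489 7 and 125 to 388 in the other libraries. Its FPKM was 61.7, 72.2, 46.6 and 53.8 in saline 1, 2, 9 and 24, and 46.7, 35.0, 45.0 and 32.8 in HDL 3, 4, 11 and 23. Only HDL 3 reached the lowest saline library. In LNA92a 5, 12, 17 and 18 it was 88.5, 68.6, 73.7 and 58.3 FPKM, so all 4 libraries exceeded all 4 of HDL. It was 12.3, 41.2, 66.8 and 49.4 FPKM in LNA489 7, 13, 14 and 19, and 35.5, 42.0, 36.9 and 43.5 in dual 8, 10, 15 and 21. The dual libraries lay closest together, with 39.5 ± 3.89 FPKM (SD, n = 4), and LNA489 was the most spread, at 42.4 ± 22.8 FPKM. The related genes did not keep a fixed ratio: Rn7s6 had 8.93 times the FPKM of Rn7s1 in LNA92a 17 and 0.0974 times in dual 10. That last value comes from Rn7s1, which reached 431 FPKM in dual 10 against a median of 20.6 over all libraries.

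Rn7sk was 13767 ± 7085 FPKM in saline (SD, n = 4), 13228 ± 1932 in LNA92a, 11632 ± 2176 in HDL, 10463 ± 2236 in LNA489 and 12117 ± 1119 in dual. The saline group held both the highest library of all, saline 1 with 22395 FPKM, and the lowest, saline 9 with 6799 FPKM. All groups overlapped. Its highest library had 3.29 times the FPKM of its lowest, the smallest such ratio of the 6 RNAs after that of Rmrp.

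Rmrp was 647 ± 307 FPKM in saline (SD, n = 4), 694 ± 80.6 in LNA92a, 652 ± 128 in HDL, 618 ± 219 in LNA489 and 624 ± 118 in dual. Its highest library, saline 2 with 915 FPKM, had 2.92 times as much as its lowest, saline 9 with 313 FPKM. On the FPKM scale the 5 group means of Rmrp differed by less than the SD within saline.

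The particle of Rpph1 shares most of its proteins with RNase MRP. Its order of libraries was partly like that of Rmrp (Spearman's rho = 0.57 on variance-stabilized values) and unlike that of Rn18s-rs5 (-0.16). It was 7747 ± 1735 FPKM in saline (SD, n = 4), 7359 ± 2438 in LNA92a, 7823 ± 3136 in HDL, 8897 ± 6829.8 in LNA489 and 12379 ± 7332 in dual. The highest values were 19255 FPKM in dual 10, 18649.5 in LNA489 14 and 17895 in dual 15, and the lowest was 3053 in LNA489 7. Dual 10 and dual 15, the lowest in 18S and in Gm25911, were thus the highest and the third highest in Rpph1. The FPKM ratio of Rpph1 to Rmrp ran from 8.21 (saline 2) to 28.9 (dual 15), while that of Rn7sk to Rmrp ran from 12.2 (HDL 11) to 24.9 (LNA489 7).

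**Figure D3:**
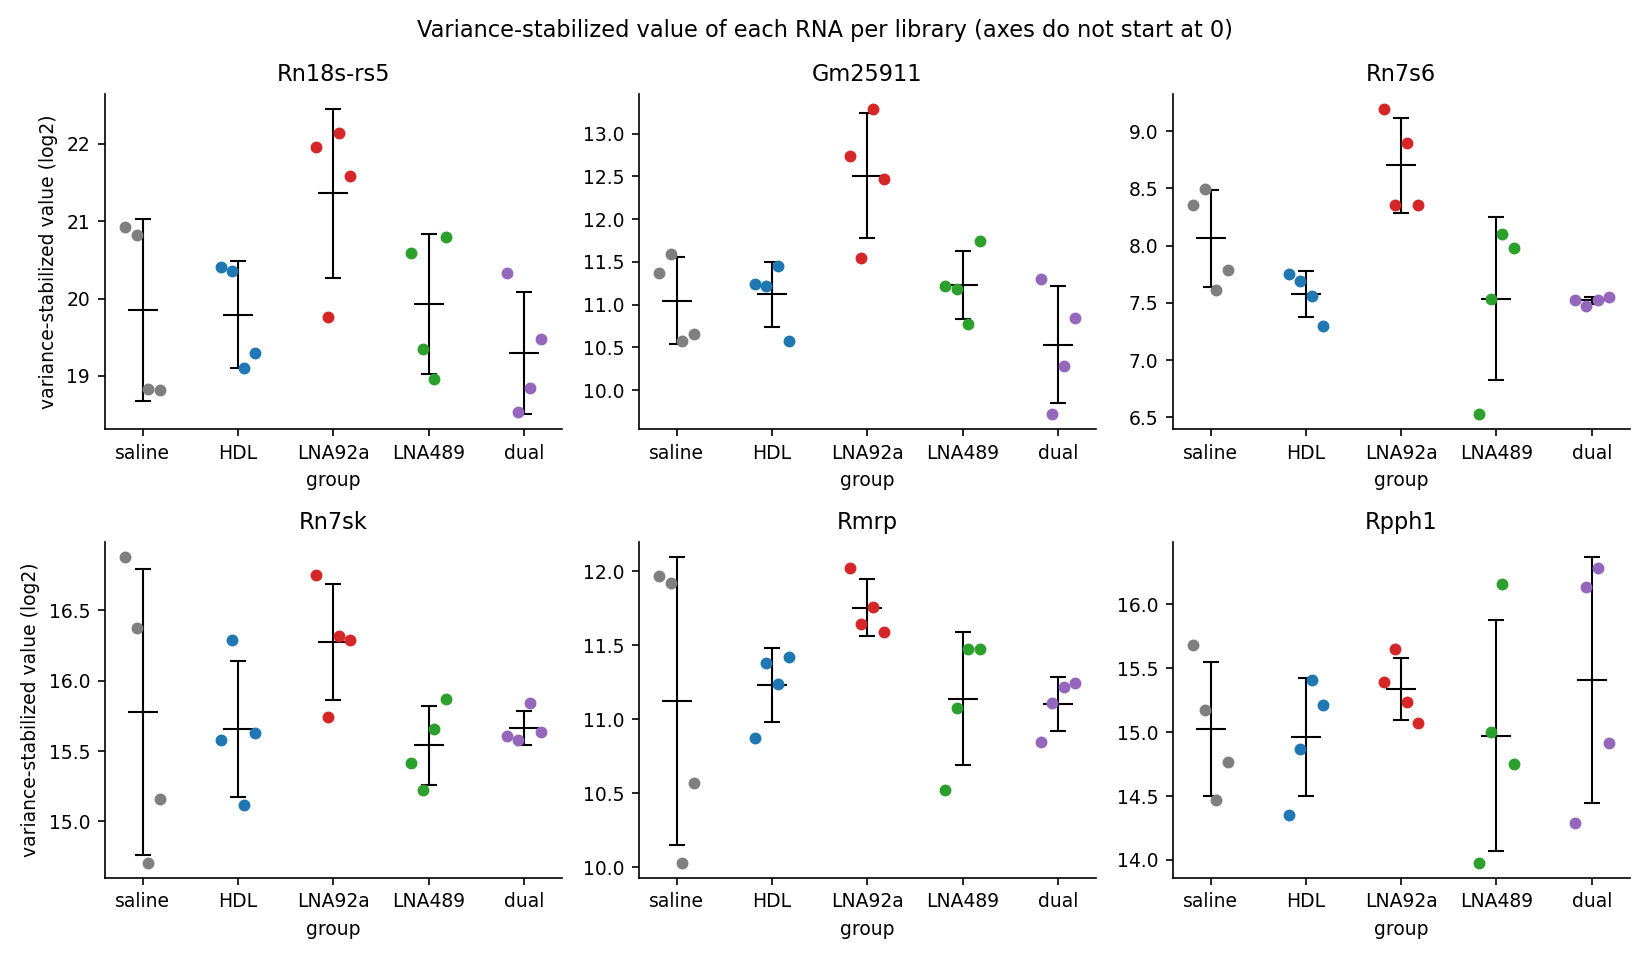
Variance-stabilized value (log2, y axis) of the 6 RNAs by group (x axis); points are libraries, bars the mean ± SD of 4 mice, and the axes do not start at 0. LNA92a has the highest group mean for Rn18s-rs5, Gm25911, Rn7s6, Rn7sk and Rmrp, and dual for Rpph1.

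On the variance-stabilized scale LNA92a had the highest group mean for all of the RNAs but Rpph1, which was highest in dual. With each RNA's 5 groups in order of their means, 24 pairs of neighbours arose, and in 19 of them the gap was smaller than the larger of the 2 SDs. The 5 gaps above it were those below LNA92a for Rn18s-rs5, Gm25911, Rn7s6 and Rmrp, and that between saline and HDL for Rn7s6. The groups accounted for 64.7% of the variance of Gm25911, 60.7% of that of Rn7s6, 41.6% for Rn18s-rs5, 23.9% for Rmrp, 22.4% for Rn7sk and 9.66% for Rpph1. The median over all genes tested was 16.0%.

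HDL was first compared with saline, which asks what HDL alone does. The 6 RNAs differed by between -0.49 (Rn7s6) and 0.11 (Rmrp) on the variance-stabilized scale. Rn7s6, at -0.49 ± 0.30 (SE), stood below the saline mean in 4 of 4 HDL libraries. Limma called 0 of the 6 RNAs and 0% of 16848 genes at an adjusted p under 0.05 (adjusted p = 1.00 for each of the 6). None of the 6 had groups that did not overlap, against 0.629% of all genes not overlapping and higher and 0.344% not overlapping and lower (0.297% and 0.261% on FPKM). The median difference of the 6 was -0.06 beside 0.03 over all genes tested.

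LNA92a was compared with HDL, which asks what the miR-92a inhibitor adds. All 6 RNAs had a higher mean in LNA92a on the variance-stabilized scale, with a median difference of 0.87 beside -0.06 over all genes tested. For Rn18s-rs5 the difference, known beforehand, was 1.57 ± 1.54 (SE) and is given as a description. That SE was computed with a trend of the variance on the mean level, and without the trend it was 0.62. Gm25911 was higher by 1.39 ± 0.38 and Rn7s6 by 1.13 ± 0.30, each in 4 of 4 libraries against the HDL mean. The differences were 0.62 ± 0.47 for Rn7sk, 0.52 ± 0.34 for Rmrp and 0.38 ± 0.50 for Rpph1. Limma's unadjusted p was 0.00164 for Gm25911 and 0.00162 for Rn7s6, and its adjusted p over all genes was 0.867 for both. Both RNAs were also chosen with earlier results of these data known, so the unadjusted p are descriptions and test no preset hypothesis. Limma called 0 of the 6 RNAs and 0% of all genes (adjusted p 0.867 to 0.886 for the 6).

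The LNA92a and HDL libraries of Gm25911, Rn7s6 and Rmrp did not overlap on the variance-stabilized scale, 3 of the 6 RNAs, where 0.855% of all genes did not overlap and were higher and 1.37% were lower. On FPKM, that held for Rn7s6 alone, where the share of all genes was 0.321% higher and 5.08% lower. On log2(FPKM + 0.1) the difference was 0.86 ± 0.36 for Rn7s6 and 0.98 ± 0.50 for Gm25911, while Rn7sk (0.19 ± 0.82), Rmrp (0.10 ± 0.38) and Rpph1 (-0.05 ± 0.79) were near 0. Relative to the median of all genes on that scale, the same differences were 1.34 for Rn7s6, 1.46 for Gm25911, 0.67 for Rn7sk, 0.58 for Rmrp and 0.43 for Rpph1. Whether Rn7sk, Rmrp and Rpph1 were higher in LNA92a therefore depended on what the reads were divided by. Leaving out each mouse in turn kept Gm25911 between 1.13 and 1.71 and Rn7s6 between 0.96 and 1.24.

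Markers of 1 other cell type also separated the groups of that comparison. The striated and cardiac muscle list, with 8 of 8 genes measured and 7 above 0 in every library (Myl2 was at 0 in 4), summed to 53.1 to 574 FPKM in LNA92a and 22.5 to 35.4 FPKM in HDL. It was the 1 list of 9 whose means did not overlap between these groups. The adipocyte list had 9 of 9 genes measured and Lep at 0 in 3 libraries. It summed to 467 to 2987 FPKM in LNA92a and 73.3 to 2574 FPKM in HDL, so the groups overlapped. LNA92a 5, 17 and 18 also had the fewest assigned reads of all 20, 11.6 to 12.1 M, against 12.4 to 21.4 M in the rest. The part of these in the higher values of Gm25911 and Rn7s6 was not tested.

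LNA489 was compared with HDL, which asks what the miR-489 inhibitor adds. The 6 differences lay between -0.11 (Rn7sk) and 0.13 (Rn18s-rs5), each smaller than its SE. Limma called 0 of the 6 and 0% of all genes (adjusted p 0.962 to 0.998). None of the 6 had groups that did not overlap, beside 0.415% of all genes higher and 1.13% lower. LNA489 7 was the lowest library of all 20 in Rn7s6 and Rpph1, with 12.3 and 3053 FPKM, and had the fewest genes with a read, 17378.

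The dual group was compared with HDL, which asks what both inhibitors add. Rn18s-rs5 differed by -0.50 ± 1.54 (SE), Gm25911 by -0.59 ± 0.38 and Rpph1 by 0.45 ± 0.50, and the other 3 by -0.13 to 0.01. Without the variance trend the SE of Rn18s-rs5 was 0.62. Leaving out each mouse in turn moved Rn18s-rs5 between -0.84 (without dual 8) and -0.24 (without dual 10), Gm25911 between -0.84 and -0.32 (without the same mice), and Rpph1 between 0.15 (without dual 15) and 0.82 (without dual 8). Limma called 0 of the 6 and 0% of all genes (adjusted p 0.998 to 0.999). None of the 6 had groups that did not overlap, beside 0.748% of all genes higher and 1.13% lower. These 3 comparisons share the HDL mice, so their values stand side by side and are not independent.

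**Figure D4:**
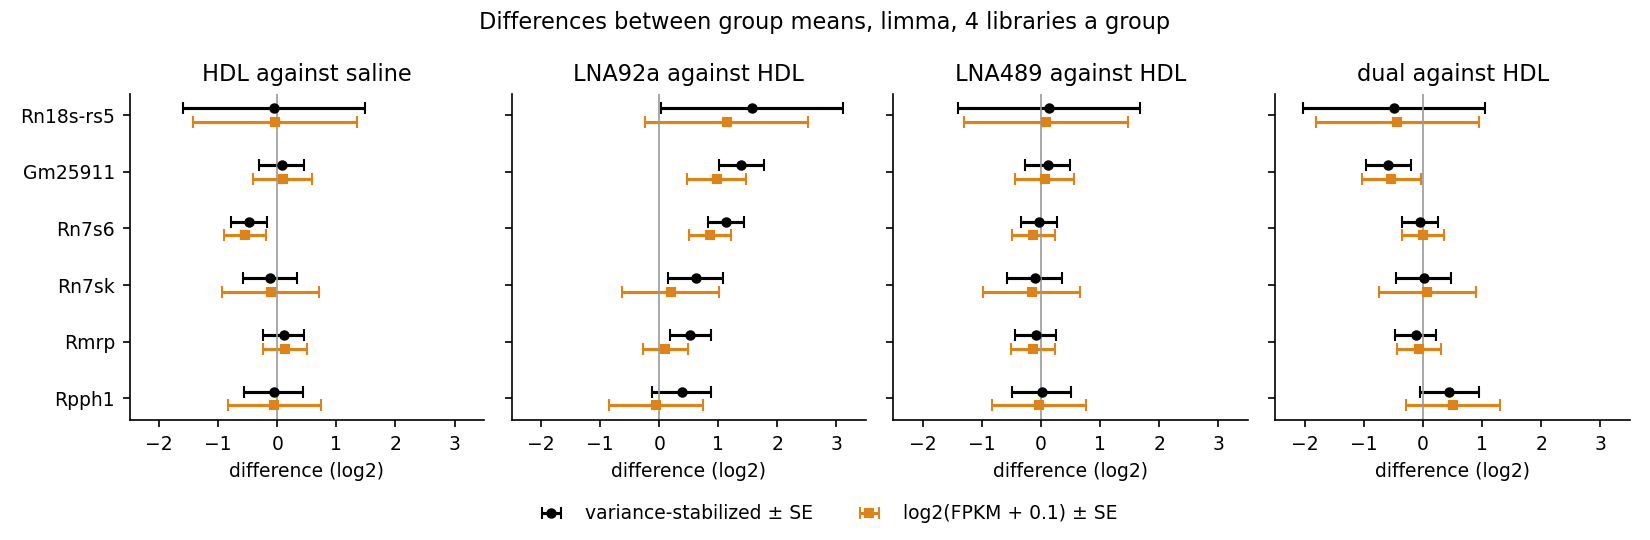
Difference between group means (log2, x axis) for the 6 RNAs (y axis) in the 4 comparisons; circles are variance-stabilized values, squares log2(FPKM + 0.1), and bars the SE from limma. In LNA92a against HDL Gm25911 and Rn7s6 lie to the right of 0 on both scales, whereas Rn7sk, Rmrp and Rpph1 move toward 0 on log2(FPKM + 0.1).

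Whether the effect of 1 inhibitor differed with the other present was read from a non-additive term, the dual mean less the LNA92a and LNA489 means with the HDL mean added back. It was -2.09 ± 0.53 (SE) for Gm25911 and -1.14 ± 0.43 for Rn7s6, with unadjusted limma p of 0.000992 and 0.0161 and adjusted p of 0.930 for both. For Rn18s-rs5 it was -2.20 ± 2.18, and for Rpph1 0.06 ± 0.71. The SE of Rn18s-rs5 rests on the variance trend, without which its SE in LNA92a against HDL was 0.62 in place of 1.54. Limma called 0% of all genes in that term and in the F-test over the 5 groups, in which the unadjusted p of Gm25911 was 0.000879 and the adjusted p 1.00. At an unadjusted p under 0.05, limma had 281, 595, 638 and 416 of 16848 genes in HDL against saline, LNA92a, LNA489 and dual against HDL. Voom on whole reads recovered from FPKM (18112 genes) also called 0 genes in each, with 370, 522, 765 and 623 at an unadjusted p under 0.05. These unadjusted counts moved widely: with array weights limma had 899, 3208, 3169 and 3214, on log2(FPKM + 0.1) it had 2245 for LNA92a, and without HDL 4 it had 656, 2860, 2297 and 1466, with none called.

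Across the 20 libraries, of 15 pairs of the 6 RNAs on the variance-stabilized scale, 11 had an adjusted permutation p under 0.05, all with a positive Pearson's r. How large a share of all gene pairs would pass was not tested, so the count is a description and no trait of the 6. The closest pair was Rn18s-rs5 and Gm25911 (r = 0.90, Spearman's rho = 0.87, each permutation p = 1e-05, the smallest that 100000 permutations can give). Next came Rn7sk and Rmrp, with r = 0.85 and rho = 0.88 at the same p. Both held on log2(FPKM + 0.1) (r = 0.82 and 0.75), with group means removed (r = 0.84 and 0.83) and without the 2 farthest libraries (r = 0.83 and 0.81). Rn7s6 and Rmrp also held throughout, with r = 0.72, 0.59, 0.72 and 0.62 in that order.

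The other relations were weaker or rested on the scale. On log2(FPKM + 0.1) 5 of the 15 pairs had an adjusted p under 0.05, of which 4 were among the 11. The other was that of Rn18s-rs5 and Rpph1, which there ran in opposite directions (r = -0.60, adjusted permutation p = 0.0219). On the variance-stabilized scale that pair had r = -0.26 (adjusted permutation p = 0.295). Rn18s-rs5 and Rn7sk had r = 0.75 on the variance-stabilized scale and 0.44 on log2(FPKM + 0.1), where the pair did not pass (adjusted permutation p = 0.0935). It passed without 18S reads in the denominator (r = 0.60), with group means removed (0.70) and without the 2 farthest libraries (0.67). Rmrp and Rpph1 had r = 0.54 (adjusted permutation p = 0.0207), and 0.37 (adjusted permutation p = 0.178) without the 2 farthest libraries, where the pair no longer passed. It passed on log2(FPKM + 0.1) (r = 0.60), without 18S reads in the denominator (0.55) and with group means removed (0.58). All values of 1 library share its denominator and its size factor, which bears on every r.

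**Figure D5:**
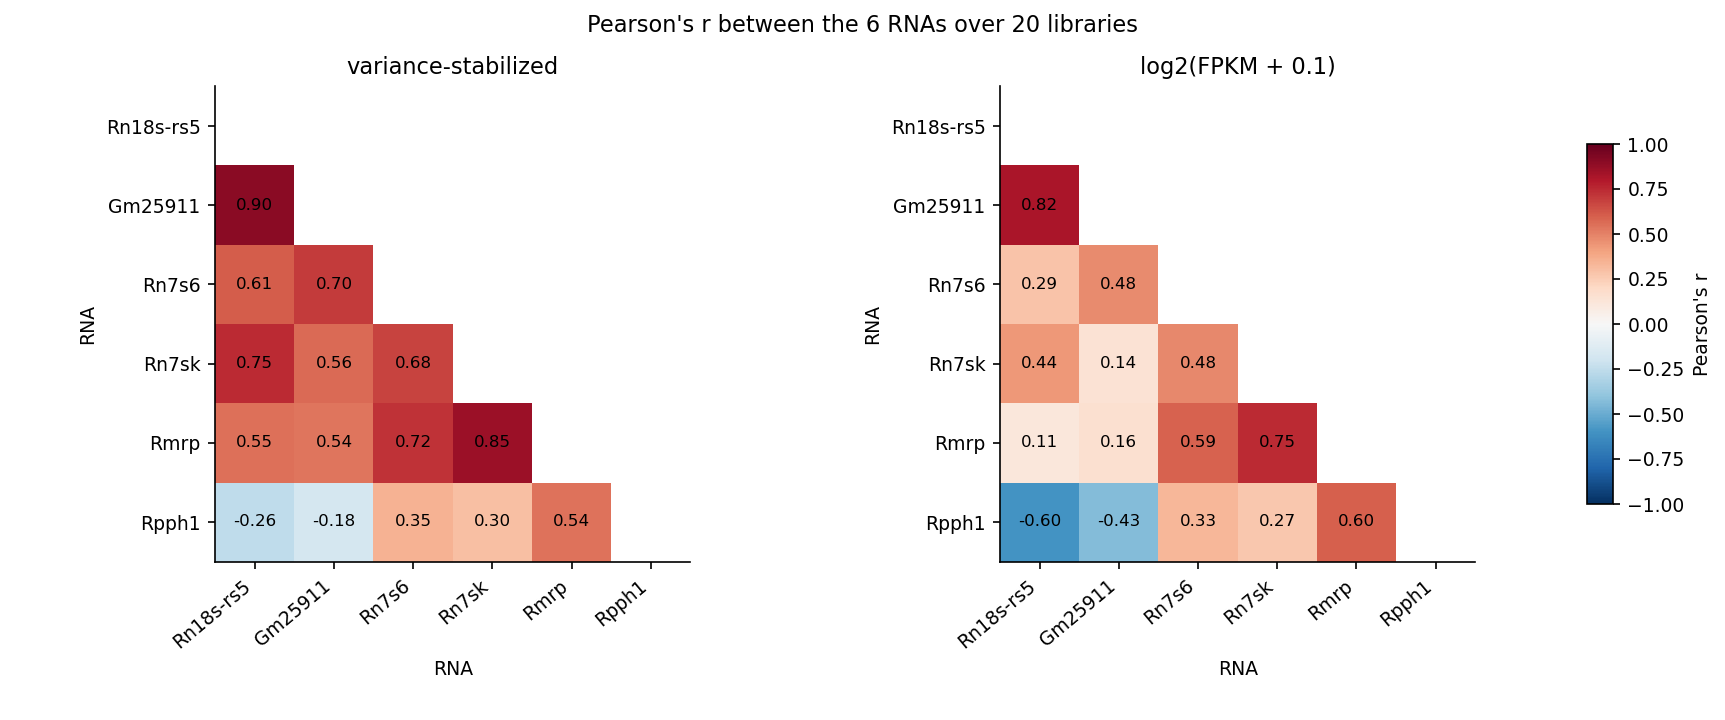
Pearson's r over 20 libraries for each pair of the 6 RNAs (both axes), on variance-stabilized values (left) and log2(FPKM + 0.1) (right); colour gives r from -1 to 1. Rn18s-rs5 with Gm25911 and Rn7sk with Rmrp stay at 0.75 or above in both panels, and Rpph1 runs against Rn18s-rs5 with -0.26 and -0.60.

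Depth and cell type markers were set against the 6 RNAs in a family of 60 relations. Gm25911 was lower in libraries with more assigned reads (r = -0.69, rho = -0.63, permutation p = 0.00054 for r and 0.00366 for rho, adjusted permutation p = 0.0324 and 0.0992). It was the 1 relation of the 60 with an adjusted p for r under 0.05. Without the 2 farthest libraries r was -0.62 and no longer passed (adjusted permutation p = 0.0845), and with group means removed r was -0.64 (adjusted permutation p = 0.0532). Rn18s-rs5 had r = -0.66 with depth (adjusted permutation p = 0.0594) and Rpph1 r = 0.54 (adjusted permutation p = 0.107), the opposite sign. Of the 54 relations to marker list means, the strongest was Rn7sk with the adipocyte list (r = 0.62, adjusted permutation p = 0.069). The endothelial list had r between -0.39 and -0.05 with the 6 RNAs.

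The genes most like each RNA over the 20 libraries were annotated as different kinds. For Rn18s-rs5 these were Lars2, annotated as a mitochondrial leucyl-tRNA synthetase gene (r = 0.97), Gm23935 (0.96) and Gm15564 (0.96). All 3 were highest in LNA92a 17 and lowest in dual 10. Lars2 took a mean of 1.28% of the reads (rank 7 of all rows), next to Mir6236 with 1.11% (rank 8). Which RNA the reads of such rows came from was not tested. For Gm25911 they were Gm23935 (0.91), Gm25732 (0.90) and Mir6236 (0.88). For Rn7sk they were the Y RNA gene Rny3 (0.89), Gm22513 (0.86) and the mitochondrial 12S rRNA gene mt-Rnr1 (0.85). Rmrp and Rpph1 were instead closest to protein-coding genes: Rmrp to Rpl27a (0.83), Pfdn5 (0.83) and Use1 (0.82), and Rpph1 to the proteasome activator gene Psme1 (0.90), Rplp1 (0.89) and Rpl41 (0.87). Rpl27a, Rplp1 and Rpl41 encode ribosomal proteins. Rn7s6 had looser neighbours, Gm25776 (0.76), CAAA01147332.1 (0.75) and 1810030O07Rik (0.73). These r are descriptions, picked as the highest of all genes tested.

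Of 44 other structural RNA genes listed, 25 had a row and 18 were tested. The levels of Rny1 and Rny3, the Y RNAs that bind Ro60, were 27.2 to 165 and 34.5 to 297 FPKM. Rnu12, a small nuclear RNA of the minor spliceosome, was at 534 to 4008 FPKM (lowest in dual 8, highest in saline 1), Scarna2 at 83.6 to 212 FPKM, Scarna13 at 19.4 to 81.9 FPKM, Scarna17 at 9.01 to 70.4 FPKM and the vault RNA Vaultrc5 at 0 to 103 FPKM. The nuclear RNAs Malat1 (518 to 2392 FPKM) and Neat1 (11.7 to 48.7 FPKM) were both lowest in LNA92a 5 and highest in saline 24. Rn7s1 ran from 7.56 to 431 FPKM and Rn7s2 from 7.87 to 47.8 FPKM, both highest in dual 10. In LNA92a against HDL 8 of the 18 were higher and 10 lower with none called, a median of -0.03 beside -0.06 for all genes. The largest differences there were 2.11 ± 1.2 for mt-Rnr1 and 1.85 ± 1.3 for mt-Rnr2 (SE; limma, adjusted p = 0.867). In HDL against saline 8 of the 18 were higher and in LNA489 and dual against HDL 9 and 8, with none called in any. In the 4 comparisons in turn, limma's smallest p belonged to Scarna13 (-0.44 ± 0.38, adjusted p = 1.00), Terc (-0.83 ± 0.42, adjusted p = 0.867), Rnu73b (-0.69 ± 0.31, adjusted p = 0.920) and Rn7s1 (1.22 ± 0.63, adjusted p = 0.998).

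The protein partners of the 6 RNAs were taken from fixed lists, and limma called none of them in any comparison. Among all genes tested, 54.0% were higher in HDL against saline, and 44.2%, 44.8% and 46.4% in LNA92a, LNA489 and dual against HDL. For the 7SK particle, which holds P-TEFb, 15 of 15 genes were tested. In LNA92a against HDL 3 were higher and 12 lower, with a median of -0.20 beside -0.06 for all genes. Rn7sk itself was at 0.62, and a link between the RNA and its partners was not tested. Mepce, which caps 7SK, had -0.49 ± 0.20 (SE; limma, adjusted p = 0.867), Cdk9, the kinase of P-TEFb, -0.27 ± 0.17, Larp7, which binds the 3′ end of 7SK, -0.02 ± 0.19, and Hexim1, the inhibitor, 0.00 ± 0.23. In HDL against saline 13 were higher (Mepce 0.39 ± 0.20, the smallest p), and in LNA489 and dual against HDL 2 and 1 were higher, with the smallest p for Hexim2 (-0.63 ± 0.24) and Ccnt1 (-0.50 ± 0.21). The HDL group enters all 4 of these, once as the first group and 3 times as the control.

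RNA polymerase I and rRNA maturation was represented by 35 tested genes of 36. With LNA92a set against HDL, 8 were higher and 27 lower (median -0.13 beside -0.06 for all genes). Polr1a, the largest subunit of the polymerase, was at -0.07 ± 0.27 (SE), its activator Ubtf at -0.19 ± 0.19, nucleolin (Ncl) at -0.09 ± 0.22 and fibrillarin (Fbl) at -0.09 ± 0.25. Higher genes numbered 25 in HDL against saline, 9 in LNA489 and 7 in dual against HDL. The smallest p were those of Taf1b (0.44 ± 0.19), Nop58 in LNA92a (-0.43 ± 0.19), Polr1e in LNA489 (-0.80 ± 0.32) and Nop58 in dual (-0.44 ± 0.19).

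For RNA polymerase III and its factors 31 of 31 genes were tested, of which 8 were higher in LNA92a against HDL (median -0.13), 12 in LNA489, 5 in dual and 18 in HDL against saline. Polr3a, its largest subunit, was at 3.03 ± 1.09 FPKM in LNA92a and 7.80 ± 3.42 in HDL (SD, n = 4), a difference of -0.78 ± 0.29 on the variance-stabilized scale (SE; limma, adjusted p = 0.867), and at -0.60 ± 0.29 in dual. Maf1, its repressor, was at 0.31 ± 0.21 and Ssb, the La protein that binds new polymerase III transcripts, at 0.08 ± 0.17 in LNA92a against HDL. Brf2 had the smallest p in LNA489 (-0.80 ± 0.31) and Gtf3c3 in HDL against saline (0.27 ± 0.16).

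RNase P and RNase MRP share protein subunits, and 12 of 12 listed genes were tested. In LNA92a against HDL 7 were higher and 5 lower (median 0.08), with Pop1 at -0.34 ± 0.43 (SE), Rpp25 at 0.83 ± 0.67 and Rpp30 at 0.14 ± 0.31, and Rpp40 had the smallest p (0.61 ± 0.33). In the other 3 comparisons 7, 8 and 8 were higher, and the smallest p were those of Rpp38 in HDL against saline (0.68 ± 0.35), Rpp14 in LNA489 (0.55 ± 0.30) and Pop1 in dual (-0.66 ± 0.43). Of the signal recognition particle 8 of 10 genes were tested and Srp54a, at a mean of 0.06 FPKM, was not. In LNA92a against HDL 5 were higher and 3 lower (median 0.08), where Srp9 was at 0.18 ± 0.19, Srp14 at 0.28 ± 0.25 (the smallest p) and Srp72 at -0.11 ± 0.19. In HDL against saline, LNA489 and dual 5, 2 and 3 were higher, with Srp54b (-0.33 ± 0.22), Srp19 (-0.27 ± 0.20) and Srp68 (-0.21 ± 0.16) as the genes of smallest p.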

How the data were processed

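Total RNA of aortic endothelium, lysed with qiazol and purified with miRNeasy, was made into libraries with a Nugen Ovation RNA-Seq kit for model organisms, per the labels' protocols. The authors deposited FPKM values for 32081 genes and variance-stabilized values on a log2 scale for 20442 genes. The submitters' processing notes name cutadapt 1.16, STAR 2.5.3a, FastQC, featureCounts 1.15.29, DESeq2 1.18.1 and the build GRCm38.p5. The strand of counting, the handling of reads with several matches and the annotation release are not given in the sources used here.

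Multiplying FPKM by gene length gave whole reads: 100% of values lay within 0.1 of a whole number, over genes of at most 3000 bases and 1000 reads. These reads gave the depths and shares, and intervals on shares cover counting error only. Limma 3.58.1 (R 4.3.3) was fitted with a mean trend to the variance-stabilized values of 16848 genes with a mean of at least 0.5 FPKM, over all 20 mice and 5 group means, with p-values adjusted over all genes by Benjamini-Hochberg and called under 0.05. Relations used permutation tests with 100000 resamples, two-sided, adjusted within each family. The animals are separate mice with their own numbers. The fit was tested on simulated data for LNA92a against HDL, with 200 of 16848 genes changed. At log2 differences of 1, 2 and 4, 14.5%, 75% and 96.5% were recovered, with 1, 10 and 11 false calls. The simulated noise was independent between genes, so these rates need not hold for the real libraries.

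The 6 RNAs and all gene lists were chosen with earlier results of these data known. The rule for named genes took all 6 RNAs and, outside the 6, the 3 genes most like each. It also took structural RNA genes with a mean of at least 10 FPKM and preset partner genes. In each partner list it took the gene with the smallest p. Alternatives changed the scale, the pseudocount (1 in place of 0.1), the denominator, the filter, the test (voom), the weights (arrayWeights) and the libraries used. Sequences and positions came from GENCODE M21 with Python 3.11.15 and Biopython 1.88. The sequences of the 7SL-related genes are not reported here.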

Additional observations from a re-analysis of the deposited data

How the results depend on the processing

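No gene was called by limma or voom in any comparison under 9 alternative settings, nor with each of the 20 libraries left out in turn. The lowest and highest numbers of genes at an unadjusted p under 0.05 over all of these were 137 and 899 in HDL against saline, 325 and 3208 in LNA92a, 361 and 3169 in LNA489, and 213 and 3214 in dual against HDL. No paired analysis was possible because no animal number occurs in more than 1 group. Counting each RNA, comparison and alternative setting separately, 230 differences kept their direction and 10 reversed. The 10 that reversed were Gm25911 in HDL against saline with array weights (-0.11), Rpph1 in LNA92a against HDL on log2(FPKM + 0.1) and log2(FPKM + 1) (-0.0502 on both), Rpph1 in LNA489 against HDL on those scales (-0.0350 on both), without 18S reads in the denominator and with voom (-0.0240 and -0.0183), and, with array weights in LNA489 against HDL, Rn7s6 (0.22), Rn7sk (0.0233) and Rmrp (0.0733). The cause was not tested. The fit without a variance trend and the median-centred differences were chosen after seeing the data.

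Counted the same way, leaving out 1 library reversed 31 differences, none of them in LNA92a against HDL, and 161 kept their direction. In HDL against saline the ranges were -0.40 to 0.30 for Rn18s-rs5, -0.0845 to 0.26 for Gm25911, -0.48 to 0.24 for Rn7sk, -0.25 to 0.39 for Rmrp and -0.25 to 0.15 for Rpph1. In LNA489 against HDL they were -0.16 to 0.45 for Rn18s-rs5, -0.0731 to 0.26 for Gm25911, -0.23 to 0.30 for Rn7s6, -0.29 to 0.10 for Rn7sk, -0.21 to 0.11 for Rmrp and -0.38 to 0.34 for Rpph1. In dual against HDL they were -0.15 to 0.00374 for Rn7s6 and -0.17 to 0.22 for Rn7sk. The adjusted limma p of Gm25911 and Rn7s6 in LNA92a against HDL ran from 0.189 to 0.997 over all alternatives.

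Of the 11 pairs related on variance-stabilized values, 4 were left on log2(FPKM + 0.1) (where 5 passed in all), 7 without 18S reads in the denominator, 6 with group means removed and 5 without the 2 farthest libraries. The relations to marker lists and depth numbered 4 on log2(FPKM + 0.1) and 0 with group means removed, against 1 (Gm25911 with depth). On log2(FPKM + 0.1) they were Gm25911, Rn18s-rs5 and Rpph1 with depth (adjusted permutation p = 0.0246, 0.0282 and 0.0282) and Gm25911 with the macrophage list (r = -0.63, adjusted permutation p = 0.0410). Without the 2 farthest libraries 1 passed, a different one, Rmrp with the striated and cardiac muscle list (r = 0.72, adjusted permutation p = 0.0456). With 18S reads taken out, the LNA92a shares of Rn7s6, Rn7sk and Rmrp moved to 0.00254%, 0.529% and 0.0225%. Rn7s6, with 56 reads in LNA489 7, is the RNA whose values depth limits most.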
